A study of Mus musculus with 2 samples.

Results

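Histone genes of the mouse Hist1, Hist2, Hist3 and Hist4 clusters were measured in splenic CD8+ T cells kept for 8 h in medium with or without methionine. The members were all protein-coding genes of the count table whose GENCODE M21 symbol begins with Hist, a cluster number from 1 to 4 and the letter h. This rule found 67 genes among the 54532 genes of the table, and it used no measured value. By class they were 6 linker histone (H1) genes, 18 H2A, 18 H2B, 12 H3 and 13 H4 genes. By place they were 54 genes of Hist1 on chromosome 13, 10 of Hist2 on chromosome 3, 2 of Hist3 on chromosome 11 and 1 of Hist4 on chromosome 6.

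The tested library came from wild-type (WT) CD8+ T cells cultured for 8 h in methionine-deficient RPMI 1640, and the control library from WT CD8+ T cells cultured for 8 h in complete RPMI 1640. All cells were primary cells from the spleens of mice that the labels call ND, without spelling the term out. The labels give neither the age, sex or strain of the animals nor whether the cells were stimulated, and they do not say whether both cultures came from the same animals. Each medium is represented by 1 bulk library. No difference below has a replicate check, no p-value is given, and the printed 95% intervals cover counting error only.

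Replication-dependent histone genes encode the linker histone and the core histones that package newly copied DNA. Their transcription peaks in S phase, when DNA is replicated. Most are intronless, and their mRNAs end just past a conserved stem-loop instead of carrying a poly(A) tail. The stem-loop binds the protein encoded by Slbp, which acts in 3′ end processing, translation and decay of these mRNAs. Some of the genes also give longer or spliced polyadenylated transcripts, mostly described in cells that have left the cycle.

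The stem-loop is shown first because the annotated 3′ end is a property by which the members' values are set out below. A perfect stem-loop of 16 bases, with 6 paired bases on each side of a loop of 4, was found by its pattern in the GENCODE M21 transcripts of 46 of the 67 members. There were 8 distinct versions. The version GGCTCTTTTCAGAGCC occurred in 26 members, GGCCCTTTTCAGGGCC in 7 and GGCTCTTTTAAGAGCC in 6. The following are from the member with the most counts of each class that has one, from the H2B gene Hist1h2bj, and from further measured members with a long annotated 3′ end, in mm10 coordinates of the stem-loop. Each is read 5′ to 3′ with 5 flanking bases on either side, and capitals mark the stem-loop.
Hist1h3c (chr13:23745047-23745062, - strand): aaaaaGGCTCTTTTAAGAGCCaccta
Hist1h4i (chr13:22040966-22040981, - strand): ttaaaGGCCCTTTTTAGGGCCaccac
Hist3h2a (chr11:58955172-58955187, + strand): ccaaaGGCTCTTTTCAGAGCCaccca
Hist1h2bj (chr13:22043638-22043653, + strand): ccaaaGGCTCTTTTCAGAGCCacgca
Hist1h1c (chr13:23739512-23739527, + strand): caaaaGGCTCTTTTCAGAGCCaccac
Hist1h4d (chr13:23581950-23581965, + strand): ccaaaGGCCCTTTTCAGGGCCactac
Hist1h3e (chr13:23561903-23561918, - strand): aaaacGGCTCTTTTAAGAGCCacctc
Hist1h1e (chr13:23621782-23621797, - strand): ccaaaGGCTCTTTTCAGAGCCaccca
Hist1h2be (chr13:23585531-23585546, - strand): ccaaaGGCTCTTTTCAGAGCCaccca
The 16 bases were identical in Hist3h2a, Hist1h2bj, Hist1h1c, Hist1h1e and Hist1h2be, although the values of these genes differed widely between the media. Hist2h2be, the H2B gene with the most counts, has an annotated transcript that runs 2192 bases past its stop codon with no perfect match to the pattern.

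The methionine-free library held 19647681 counts and the complete-medium library 14646527. One count was thus worth 0.051 CPM (the share of a library, in counts-per-million units) without methionine and 0.0681 CPM in complete medium. Levels are given in CPM of the library total, and folds are ratios of counts scaled by the TMM method. The listed markers of CD8+ T cells summed to 1550 CPM without methionine and 1750 CPM in complete medium, and none of the 6 passed 2-fold. Of the 34 listed S phase genes, 32 were at least 2-fold lower without methionine and none was higher, beside 9.29% lower and 5.80% higher over the 13041 genes that averaged 10 counts or more. Their median log2 difference was -2.20. Dendritic cell markers summed to 524 counts without methionine and 118 in complete medium, with Flt3 and Zbtb46 past 2-fold. Markers of B cells summed to 121 counts without methionine and 142 in complete medium, and natural killer cell markers to 0 without methionine and 3 in complete medium. Myeloid markers summed to 123 counts without methionine and 79 in complete medium, and erythroid markers to 35 without methionine and 21 in complete medium. Platelet markers summed to 34 counts (1.74 CPM) without methionine and 30 (2.04 CPM) in complete medium. The part of these cells in the histone values was not tested. The labels name both a whole-RNA library kit and an mRNA kit, without saying which made which library, and mRNAs without a poly(A) tail depend on that choice. Among genes of other short RNA biotypes, small nuclear RNAs summed to 17.1 CPM without methionine and 14.7 CPM in complete medium, small nucleolar RNAs to 87.3 CPM without methionine and 95.1 CPM in complete medium, and ribosomal RNA genes to 111 CPM without methionine and 146 CPM in complete medium. Genes of the miscellaneous RNA biotype summed to 12.8 CPM without methionine and 4.83 CPM in complete medium. Small Cajal body RNAs summed to 2.09 CPM without methionine and 2.52 CPM in complete medium, and ribozymes to 0.153 and 0.272 CPM in that order. The 7SK RNA gene Rn7sk had 115 counts without methionine and 11 in complete medium. The part of the library kit in the histone values was not tested.

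Reads of the member genes were scarce in both libraries. The 67 members together took 497 counts, or 0.00253% of the library, without methionine, and 772 counts, or 0.00527%, in complete medium. The sum was 2.07-fold lower without methionine (95% interval 1.85 to 2.32). In bulk libraries, fewer cells that make histone mRNA and less histone mRNA per cell cannot be told apart.

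Of the 67 members, 15 had a mean of at least 10 counts over the 2 libraries and are called measured here. A member can thus pass this minimum only through the library where it is higher, and the calls below rest on that choice. Hist1h3c passed in this way, with 2 counts without methionine and 94 in complete medium. So did Hist3h2a, with 27 counts without methionine and 2 in complete medium. At a threshold of 2-fold, 9 of the 15 were lower without methionine, 4 were higher and 2 lay between. Across all 13041 genes with that minimum, 9.29% were at least 2-fold lower and 5.80% at least 2-fold higher. No measured member reached a mean of 100 counts, and genes with few counts pass 2-fold more often. Among the 3519 genes with a mean of 10 to 100 counts, 18.0% were lower and 14.0% higher. The counting interval lay wholly below 1 for 8 of the 9 lower members and wholly above 1 for all 4 higher members. The median log2 difference of the 15, with a prior count of 0.5, was -1.67, with a range of -5.61 to 3.09, beside a median of -0.05 over the genes with 10 to 100 counts and 0.04 over all 13041. The members lay on both sides, and the H3 and H4 genes measured all lay on the lower side.

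**Figure D1:**
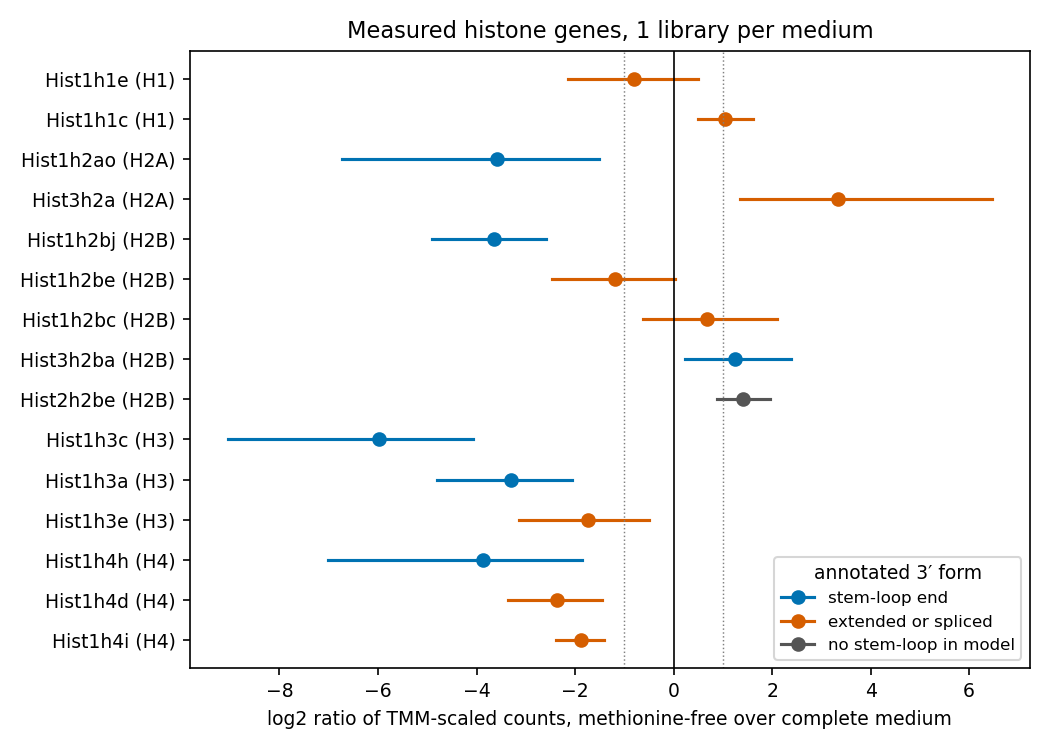
Log2 ratio of TMM-scaled counts, methionine-free over complete medium, for the 15 measured histone genes (points) with the exact 95% counting interval (lines), ordered by class and coloured by the annotated 3′ form. Dotted lines mark 2-fold. Hist1h3c lies farthest to the left, at 62.7-fold lower, and Hist3h2a farthest to the right, at 10.1-fold higher.

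H3 forms the core of the nucleosome together with H4. The H3 genes summed to 21 counts without methionine and 202 in complete medium, which is 1.07 CPM without methionine and 13.8 CPM in complete medium, 12.8-fold lower (8.17 to 21.2). Hist1h3c had 2 counts without methionine and 94 in complete medium, a 62.7-fold lower scaled count (16.9 to 525). It held 0.402% of all the members' counts without methionine and 12.2% in complete medium. Without it the H3 ratio of methionine-free over complete medium was 0.132 (0.0764 to 0.216), against 0.0779 with it. Hist1h3a had 6 counts without methionine and 44 in complete medium, 9.78-fold lower (4.15 to 28.1). Hist1h3e had 8 counts without methionine and 20 in complete medium, 3.34-fold lower (1.41 to 8.76). These were the 3 H3 genes measured, and all lay past 2-fold on the lower side. Each reached 10 counts in complete medium alone, so each passed the minimum through the library where it was higher. Below the minimum, Hist1h3h had 4 counts without methionine and 12 in complete medium. Hist1h3i had none without methionine and 13 in complete medium, Hist1h3f none without methionine and 11 in complete medium, and Hist1h3g none without methionine and 8 in complete medium. With a floor of 3 counts put in place of 0, these would be 5.78-fold, 4.89-fold and 3.56-fold lower. Their ratio intervals reached up to 0.246, 0.299 and 0.439. Hist2h3c2 was the H3 gene with the reverse order, with 1 count without methionine and 0 in complete medium, and the other 4 H3 genes had 0 in both.

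The H4 genes summed to 97 counts without methionine and 247 in complete medium, 3.4-fold lower (2.68 to 4.34). Hist1h4i, the member with the most counts in complete medium, had 49 counts without methionine and 136 in complete medium, 3.7-fold lower (2.65 to 5.24). Hist1h4d had 13 counts without methionine and 50 in complete medium, 5.13-fold lower (2.75 to 10.3). Hist1h4h had 2 counts without methionine and 22 in complete medium, 14.7-fold lower (3.61 to 129). All 3 measured H4 genes thus lay on the lower side, with intervals that overlap one another. Among those below the minimum, Hist1h4f had 0 counts without methionine and 11 in complete medium, with a ratio interval of 0 to 0.299. Hist1h4c had the reverse order, with 11 counts without methionine and 2 in complete medium, and a ratio interval of 0.9 to 38.3 that holds 1. The single Hist4 gene, Hist4h4, had 4 counts without methionine and 1 in complete medium. Hist2h4 had 7 counts without methionine and 6 in complete medium, which is 1.14-fold lower once scaled (0.318 to 3.97).

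H2A and H2B pair as dimers on the nucleosome. The H2A genes summed to 38 counts without methionine and 68 in complete medium, 2.39-fold lower (1.58 to 3.65), and the measured H2A genes lay on opposite sides. Over the H2A genes with at least 50% of their sequence unique, the ratio of methionine-free over complete medium was 0.775 (0.454 to 1.32), an interval that holds 1. Hist1h2ao had 2 counts without methionine and 18 in complete medium, 12-fold lower (2.87 to 107). Only 7.3% of its stretches of 100 bases are found in no other annotated transcript, so its reads may belong to its near-identical copies. Hist3h2a had 27 counts without methionine and 2 in complete medium, 10.1-fold higher (2.54 to 87.8), and made up most of the methionine-free H2A sum. Its exons overlap those of Trim17 on the same strand, which had 4 counts in each library, and no source used here says how counting dealt with strand and overlaps. Without Hist3h2a the H2A ratio of methionine-free over complete medium was 0.125 (0.0595 to 0.238), against 0.419 with it. Hist1h2ak and Hist1h2ae each had 0 counts without methionine and 11 in complete medium, with a ratio interval of 0 to 0.299.

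The H2B genes summed to 217 counts without methionine and 198 in complete medium, 1.22-fold lower, with an interval of the fold (0.999 to 1.48) that just reaches 1. The ratio interval fell just short of 1 under total count scaling (0.671 to 0.996) and DESeq2 size factors (0.672 to 0.998), and reached 1.01 under upper quartile scaling. The sum joined genes that differed in opposite directions. Hist2h2be, which in mouse olfactory neurons is known to encode an H2B variant, had 138 counts without methionine and 39 in complete medium, 2.65-fold higher (1.85 to 3.89). It held 27.8% of all the members' counts without methionine and 5.05% in complete medium. Hist3h2ba had 35 counts without methionine and 11 in complete medium, 2.38-fold higher (1.18 to 5.21). Hist1h2bc lay between the thresholds, with 17 counts without methionine and 8 in complete medium (ratio interval 0.651 to 4.26). On the other side, Hist1h2bj had 8 counts without methionine and 75 in complete medium, 12.5-fold lower (6.03 to 30). Hist1h2be had 10 counts without methionine and 17 in complete medium, 2.27-fold lower, with an interval of the fold (0.981 to 5.54) that holds 1. Hist1h2bk had 0 counts without methionine and 16 in complete medium, with a ratio interval of 0 to 0.194 and 29.2% of its stretches unique. Without Hist2h2be, the H2B ratio was 0.372 (0.281 to 0.491).

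H1 histones bind the linker DNA between nucleosomes. The H1 genes summed to 124 counts without methionine and 57 in complete medium, 1.63-fold higher (1.18 to 2.27), the only class with a higher sum. Hist1h1c made up most of it, with 110 counts without methionine and 40 in complete medium, 2.06-fold higher (1.42 to 3.04). Hist1h1e had 10 counts without methionine and 13 in complete medium, 1.73-fold lower, with an interval (0.703 to 4.42) that holds 1. Its exons overlap an exon of Hist1h2be on the same strand, so reads of this stretch may be counted for either gene or for none. Hist1h1a had 4 counts without methionine and 1 in complete medium, Hist1h1d 0 without methionine and 2 in complete medium, and Hist1h1b 0 without methionine and 1 in complete medium. Hist1h1t, the testis linker histone gene, had 0 in both. Without Hist1h1c the H1 ratio was 0.617 (0.282 to 1.33), so the direction of the class sum rested on that gene.

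**Figure D2:**
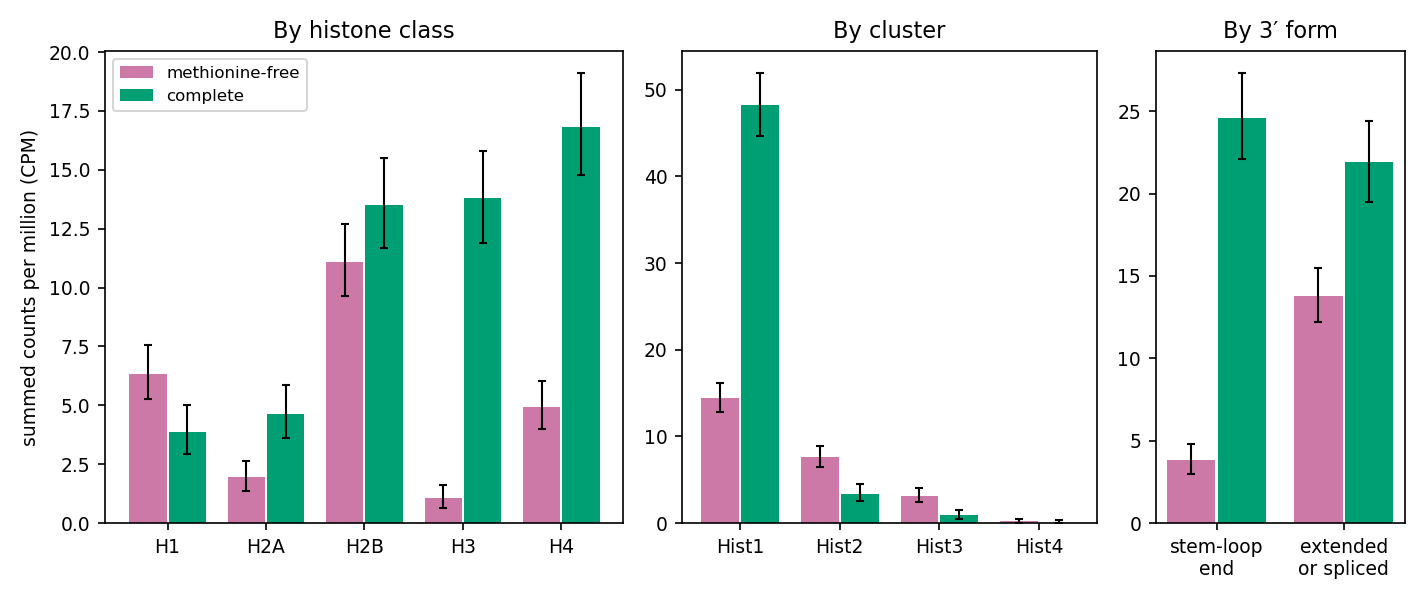
Summed CPM of the histone genes by class, by cluster and by annotated 3′ form, with methionine-free medium to the left of complete medium in each pair and exact 95% Poisson intervals of the sums as error bars; the panels have different vertical scales. H3 stands at 1.07 CPM without methionine and 13.8 CPM in complete medium, while H1, Hist2 and Hist3 are higher without methionine.

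Compared per length of annotated exon (RPKM, CPM per kilobase), the members at the top differed between the media. In the methionine-free library the levels of Hist1h1c (3.6 RPKM, counting interval 2.96 to 4.34), Hist1h4i (3.44, 2.54 to 4.55), Hist3h2ba (2.91, 2.03 to 4.05) and Hist2h2be (2.69, 2.26 to 3.18) came first. Their intervals overlap, so their order is not resolved. The next, Hist1h2bj, stood at 0.882 RPKM (0.381 to 1.74). In complete medium Hist1h4i stood at 12.7 RPKM (10.7 to 15.1), Hist1h2bj at 11 (8.68 to 13.8) and Hist1h3c at 10.2 (8.21 to 12.4), again with overlapping intervals. Hist1h3a followed at 5.61 RPKM (4.08 to 7.53), and Hist1h1c stood at 1.75 RPKM (1.25 to 2.38). Hist1h4i was thus in the first group in both libraries, whereas Hist1h3c stood at 0.162 RPKM (0.0196 to 0.585) without methionine. Annotated lengths vary with the 3′ end chosen by the annotation, which limits these comparisons between genes.

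The clusters differed in direction. Hist1 summed to 282 counts without methionine and 708 in complete medium, 3.35-fold lower (2.91 to 3.86), and its 12 measured members split into 9 past 2-fold on the lower side, 1 past it on the higher side and 2 between. Hist2 summed to 149 counts without methionine and 50 in complete medium, 2.23-fold higher (1.61 to 3.14). Nearly all of this was Hist2h2be, and without it the Hist2 ratio was 0.75 (0.295 to 1.91), on the other side of 1. Hist3 summed to 62 counts without methionine and 13 in complete medium, 3.57-fold higher (1.95 to 7.09), with both of its members higher. The Hist3 interval and the Hist1 interval lie on opposite sides of 1 and do not overlap.

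Within Hist1, gaps of more than 100 kb between neighbouring members part the cluster into 4 stretches. In genome order, stretch 1 with 18 genes had 17 counts without methionine and 86 in complete medium, 6.75-fold lower (3.98 to 12.1). Stretch 2 with 5 genes had 62 counts without methionine and 239 in complete medium, 5.14-fold lower (3.87 to 6.92). Stretch 3 with 29 genes had 203 counts without methionine and 383 in complete medium, 2.52-fold lower (2.12 to 3). The last stretch holds Hist1h2ba and Hist1h2aa, known from testis, which had 0 counts in both libraries. Most of the methionine-free counts of stretch 3 were those of Hist1h1c.

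**Figure D3:**
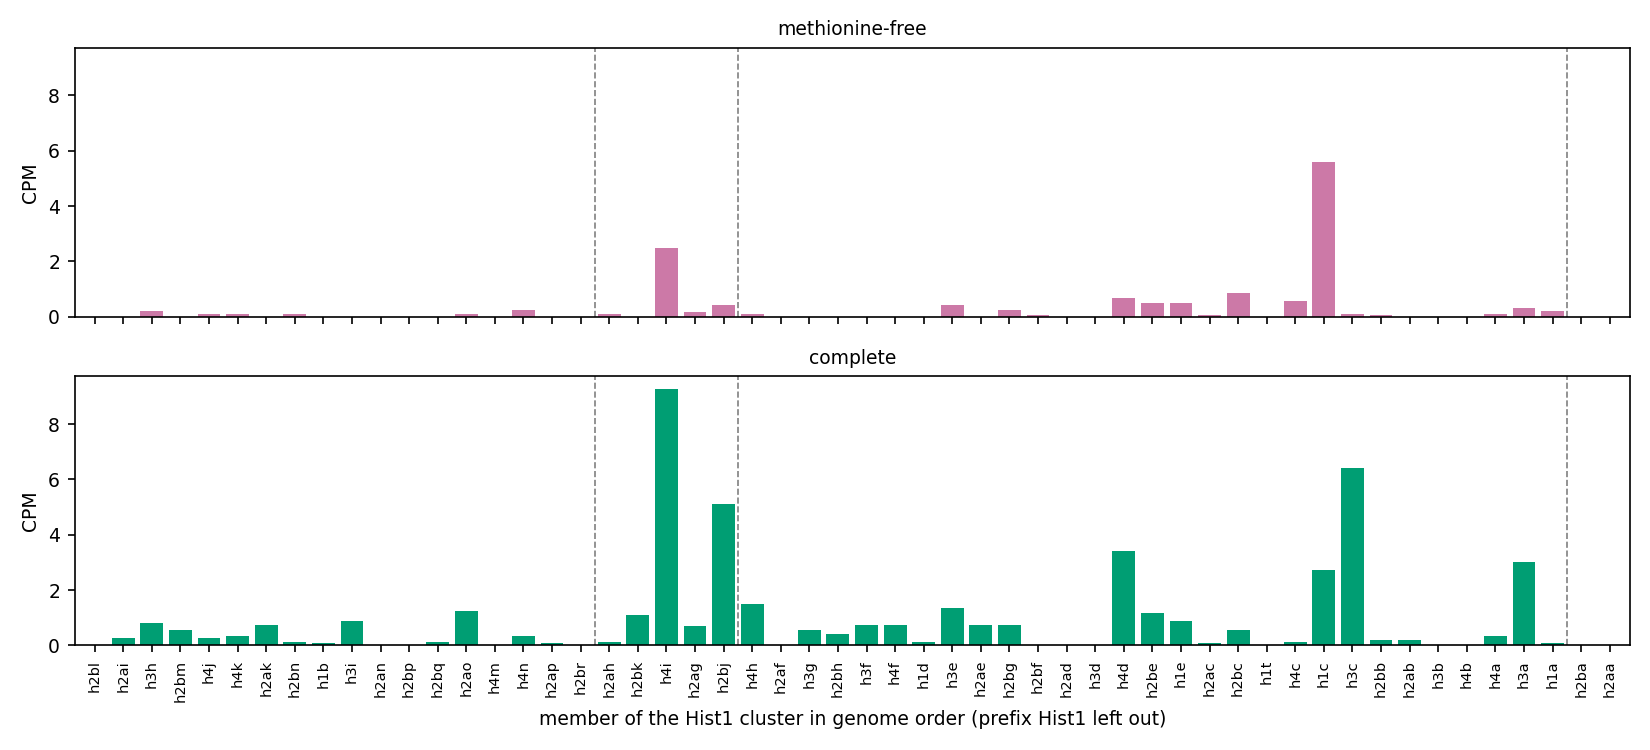
CPM of the 54 Hist1 members in genome order, methionine-free above complete medium on the same vertical scale; dashed lines mark gaps of more than 100 kb. Hist1h4i and Hist1h1c carry the tallest bars without methionine (2.5 and 5.61 CPM), and Hist1h4i and Hist1h3c the tallest in complete medium (9.26 and 6.4 CPM).

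Many H2A and H2B genes lie head to head and share the DNA between their starts. The table holds 13 such divergent pairs with starts within 1000 bases of each other, of which 12 join an H2A and an H2B gene. In the pair Hist1h2ag and Hist1h2bj, 269 bases apart, Hist1h2ag had 3 counts without methionine and 10 in complete medium, and Hist1h2bj had 8 without methionine and 75 in complete medium, so both were lower. In the pair Hist2h2ac and Hist2h2be, 238 bases apart, Hist2h2ac had 3 counts without methionine and 5 in complete medium, with a ratio interval that holds 1, while Hist2h2be had 138 without methionine and 39 in complete medium. In the pair Hist1h2ac and Hist1h2bc, Hist1h2ac had 1 count in each library and Hist1h2bc had 17 without methionine and 8 in complete medium. In these pairs the counts of the H2A partners were too low to show whether the members of a pair differed. The other pairs are not set out here.

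The members were next set out by their annotated 3′ end. In 27 genes the longest annotated transcript has a stem-loop and ends within 200 bases of it, called a stem-loop end. In 22 genes a transcript ends at least 200 bases past the stem-loop or has more than 1 exon, called extended or spliced. In the other 18 no stem-loop lies in the model, in most because the model stops at or near the stop codon. Genes with a stem-loop end summed to 75 counts without methionine and 361 in complete medium, 6.42-fold lower (5 to 8.35). Extended or spliced genes summed to 270 counts without methionine and 321 in complete medium, 1.59-fold lower (1.34 to 1.87). Without Hist1h4i their ratio of methionine-free over complete medium was 0.895 (0.733 to 1.09), an interval that holds 1. Genes with no stem-loop in the model summed to 152 counts without methionine and 90 in complete medium, 1.27-fold higher (0.969 to 1.66). The direction of this sum rested on Hist2h2be, with 138 counts without methionine and 39 in complete medium. Of these 18 genes, 8 had a higher CPM in complete medium, 2 a higher CPM without methionine and 8 had 0 counts in both. Stem-loop end genes held 15.1% (exact interval 12.1 to 18.5) of the members' counts without methionine and 46.8% (43.2 to 50.4) in complete medium. Extended or spliced genes held 54.3% (49.8 to 58.8) without methionine and 41.6% (38.1 to 45.1) in complete medium. The intervals of the fold for both forms do not overlap.

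Of the 6 measured genes with a stem-loop end, 5 were at least 2-fold lower and 1, Hist3h2ba, was higher, with a median log2 difference of -3.40. The Hist3h2ba model ends 169 bases past its stem-loop, nearer the limit of 200 than the other 5, whose models end 23 to 74 bases past it. Of the 8 measured extended or spliced genes, 4 were lower (Hist1h4i, Hist1h4d, Hist1h3e and Hist1h2be), 2 were higher (Hist1h1c and Hist3h2a) and 2 lay between (Hist1h1e and Hist1h2bc), with a median of -0.95. Form and class are not independent, since every H1 gene measured is extended. Within H3, stem-loop end genes were 24.3-fold lower (12 to 57.5; 8 counts without methionine and 146 in complete medium) and extended genes 4.6-fold lower (2.14 to 11; 9 counts without methionine and 31 in complete medium). Within H4, stem-loop end genes were 6.37-fold lower (3.06 to 14.9; 9 counts without methionine and 43 in complete medium) and extended genes 3.09-fold lower (2.39 to 4.02; 86 counts without methionine and 199 in complete medium). Within H2B, stem-loop end genes were 3.31-fold lower (2.36 to 4.69; 50 counts without methionine and 124 in complete medium) and extended or spliced genes 1.63-fold lower (0.951 to 2.82; 27 counts without methionine and 33 in complete medium). Within H2A, stem-loop end genes were 8.01-fold lower (3.75 to 19.6; 8 counts without methionine and 48 in complete medium), and extended genes were 7-fold higher (2.16 to 36; 28 counts without methionine and 3 in complete medium), nearly all of them Hist3h2a. In these 4 classes the stem-loop end genes had the lower ratio, and the intervals of both forms do not overlap in H3 and H2A. The H3 difference rested on Hist1h3c, whose model ends 74 bases past the stem-loop. Without it the H3 stem-loop end genes were 11.6-fold lower (4.97 to 32.9). With a limit of 50 bases in place of 200, Hist1h3c and Hist3h2ba count as extended and the order in H3 turned, with stem-loop end genes 11.6-fold lower (4.97 to 32.9) and extended genes 15.2-fold lower (8.19 to 31.2). Over all classes that limit gave 10.7-fold lower (7.19 to 16.4) for stem-loop end genes and 1.93-fold lower (1.67 to 2.23) for extended or spliced genes. The form comes from the annotation. Gene-level counts do not show which 3′ end the RNA in these cells had.

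**Figure D4:**
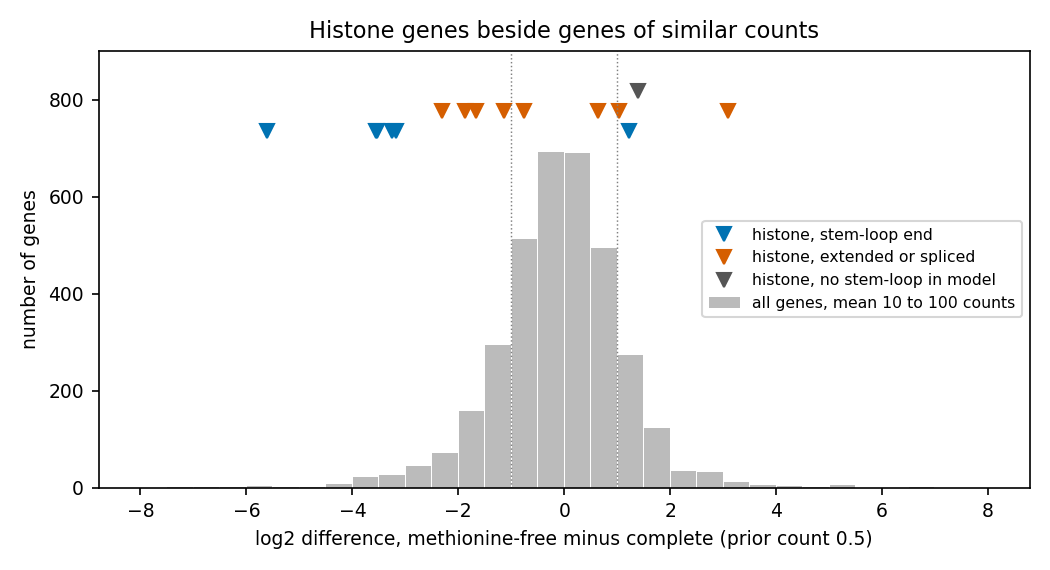
Histogram of the log2 difference, methionine-free minus complete medium, for the 3519 genes with a mean of 10 to 100 counts (grey bars), with the 15 measured histone genes as triangles above it, coloured by annotated 3′ form at heights of no meaning. Dotted lines mark 2-fold. The triangles have a median of -1.67 and the grey bars one of -0.05.

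The remaining 52 members had a mean under 10 counts. Of these, 28 had a higher CPM in complete medium, 5 had a higher CPM without methionine and 19 had 0 counts in both libraries. They summed to 60 counts without methionine and 183 in complete medium, 4.07-fold lower (3.02 to 5.54). Among all 67, 15 had counts in complete medium alone and 2 in methionine-free medium alone, each of those 2 with a single count. By the exact Poisson interval, a count of 0 allows a level of up to 0.188 CPM without methionine and 0.251 CPM in complete medium. Many histone genes are near-identical copies, and no source used here says how reads that fit several genes were counted. Of the 19 members with 0 in both, 14 had fewer than 50% of their stretches of 100 bases unique among annotated transcripts, and 5 of them, all in Hist2, had none. Of the 48 members with a count in either library, 14 were below 50%, and of the 15 measured members 1 was. The part of shared sequence in the zeros was not tested. The 39 members at or above 50% unique held 476 counts without methionine and 679 in complete medium, 1.9-fold lower, beside 2.07-fold over all 67.

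Promoters are shown for the genes at both ends of the range and for Hist1h4i, since histone promoters are known for a CCAAT box, a TATA box and, in H2A and H2B genes, an octamer motif. Sequences of 250 bases before to 50 after the annotated start came from RefSeq (GRCm38.p6), which matched 61 of the 67 members. Searched on both strands were CCAAT for the CCAAT box, TATAA for the TATA box and ATGCAAAT for the octamer, and capitals mark the matches.
Hist1h3c (chr13:23745472-23745771, - strand): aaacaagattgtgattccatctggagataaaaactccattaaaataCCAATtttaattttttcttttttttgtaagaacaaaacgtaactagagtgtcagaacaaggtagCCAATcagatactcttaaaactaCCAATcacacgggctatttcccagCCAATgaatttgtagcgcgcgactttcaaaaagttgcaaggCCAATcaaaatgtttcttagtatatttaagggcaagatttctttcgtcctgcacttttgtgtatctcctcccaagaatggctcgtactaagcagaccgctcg
Hist3h2a (chr11:58954435-58954734, + strand): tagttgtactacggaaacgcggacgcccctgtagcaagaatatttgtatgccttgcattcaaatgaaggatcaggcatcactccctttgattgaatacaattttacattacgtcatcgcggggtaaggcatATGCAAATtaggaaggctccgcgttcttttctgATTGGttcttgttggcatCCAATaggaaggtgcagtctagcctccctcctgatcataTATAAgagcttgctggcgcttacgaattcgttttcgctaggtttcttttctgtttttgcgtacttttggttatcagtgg
Hist1h4i (chr13:22041313-22041612, - strand): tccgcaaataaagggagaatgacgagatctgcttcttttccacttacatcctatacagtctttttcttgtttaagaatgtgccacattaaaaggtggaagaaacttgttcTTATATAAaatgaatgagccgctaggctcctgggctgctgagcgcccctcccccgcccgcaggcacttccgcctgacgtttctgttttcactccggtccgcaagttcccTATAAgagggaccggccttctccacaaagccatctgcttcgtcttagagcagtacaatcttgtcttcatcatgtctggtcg
CCAAT was found in 85.2% of the 61 member promoters, against 37.4% of all 32851 RefSeq promoters of the same length. It occurred in each of the H1, H2A, H2B and H3 promoters matched and in 3 of the 12 H4 promoters. TATAA was found in 78.7% of member promoters and 24.9% of all, and ATGCAAAT in 21.3% of member promoters and 1.7% of all. The 13 promoters with ATGCAAAT were 7 of H2A and 6 of H2B genes. Hist1h3c, the gene lowest in ratio, has 5 matches to CCAAT, Hist3h2a, the highest, has 2 with 1 octamer, and Hist1h4i has none. These are matches of letters and not measured binding sites, and H2A and H2B, with CCAAT in every promoter matched, held genes past 2-fold on both sides.

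Genes that make, process and degrade histone mRNA were read from a list of 42 genes, all measured. At 2-fold, 5 (11.9%) were lower without methionine and 2 (4.76%) higher, beside 9.29% lower and 5.80% higher over all genes. These shares are not matched to the list, of which all genes but Zfp473 averaged over 100 counts. Among genes with 10 to 100 counts 18.0% were lower and 14.0% higher, so fewer pass 2-fold at higher counts than over all genes. The median log2 difference of the list was -0.07, beside 0.04 over all genes. The genes past 2-fold follow as single values. Slbp, the stem-loop binding protein gene, had 86.5 CPM without methionine and 187 CPM in complete medium, 2.16-fold lower (2.03 to 2.3). Npat, a coactivator of histone gene transcription, had 63.3 CPM without methionine and 77.6 CPM in complete medium, 1.22-fold lower (1.13 to 1.33) and under the threshold. The kinase and cyclins that act on NPAT at the start of S phase were lower. Cdk2 was 2.49-fold lower (46 CPM without methionine and 114 CPM in complete medium), Ccne1 4.28-fold (27.9 CPM without methionine and 119 CPM in complete medium) and Ccne2 7.89-fold (5.36 CPM without methionine and 42.3 CPM in complete medium). Zfp473, whose human counterpart acts in histone 3′ end processing, had 40 counts without methionine and 71 in complete medium, 2.37-fold lower (1.59 to 3.58). On the higher side were Pnrc2, a cofactor of mRNA decapping, at 2.04-fold (1.88 to 2.21; 113 CPM without methionine and 55.6 CPM in complete medium), and Cstf2t, a cleavage stimulation factor subunit, at 2.01-fold (1.82 to 2.22; 76.3 CPM without methionine and 38 CPM in complete medium). Both intervals hold 2, and under total count scaling 1 of these 2 genes passed 2-fold. The other 35 genes of the list, Npat among them, lay within 2-fold.

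Most of the listed histone variants are made outside S phase as well, largely from polyadenylated mRNAs, and gave far more reads. Of 11 listed variant genes 9 were measured, of which 3 were at least 2-fold lower and 1 higher, beside 9.29% lower and 5.80% higher over all genes. H2afz, an H2A variant found at promoters, had 176 CPM without methionine and 361 CPM in complete medium, 2.06-fold lower (1.97 to 2.15). H2afx, the variant phosphorylated at DNA breaks, had 43.6 CPM without methionine and 103 CPM in complete medium, 2.36-fold lower (2.17 to 2.57). Cenpa, the H3 variant of centromeres, was 6.96-fold lower (6.07 CPM without methionine and 42.3 CPM in complete medium). The genes of the replacement H3 lay close to even. H3f3a had 157 CPM without methionine and 174 CPM in complete medium, 1.11-fold lower, and H3f3b had 616 CPM without methionine and 480 CPM in complete medium, 1.28-fold higher. H1f0, a replacement linker histone gene known from cells that have stopped dividing, had 37.2 CPM without methionine and 12.4 CPM in complete medium, 3-fold higher (2.55 to 3.55). The other listed linker variant, H1fx, was below the minimum. It had 0 counts without methionine and 7 in complete medium, with a ratio interval of 0 to 0.52. H1f0 and Hist1h1c were thus higher and H1fx lower, while H3f3a and H3f3b differed far less than the clustered H3 genes.

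The S phase genes give the setting of these values. Pcna, the sliding clamp of DNA polymerase, had 318 CPM without methionine and 806 CPM in complete medium, 2.53-fold lower (2.45 to 2.61). Rrm2, a subunit of ribonucleotide reductase, had 10.1 CPM without methionine and 229 CPM in complete medium, 22.7-fold lower (19.7 to 26.4). The sum of the clustered histone genes, 2.07-fold lower, and the sum of their stem-loop end genes, 6.42-fold lower, lay on the same side as both. The part of cell cycle position in the histone values was not tested.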

How the data were processed

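RNA from 2 cultures, 1 per medium, was sequenced. TRIzol-extracted total RNA was made into libraries with a whole-RNA or an mRNA kit, per the labels' protocols. The authors deposited raw read counts per Ensembl gene, unscaled. Per the submitters' processing notes, mm10 was the genome build. The aligner, the counter and the strand setting are given in no source used here. The file header's column beginning with Met and its misspelt control column were matched to the samples by their titles.

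Symbols, transcripts and coordinates came from GENCODE M21 (37 IDs had no symbol), and promoters from RefSeq GRCm38.p6. Counts were scaled by TMM (edgeR 4.0.16 in R 4.3.3), used for scaling only, as was DESeq2 1.42.0 in an alternative. Log2 differences used a prior count of 0.5. Folds carry exact conditional binomial 95% intervals (scipy 1.17.1), and reads without molecular identifiers are not independent molecules. Steps were tested on simulated counts. The members, gene lists and rules were chosen with earlier results of these data known. The naming rule took, per class, the 4 members with the most counts and the extreme log2 differences, all measured Hist2 to Hist4, extended and higher members, and fixed genes of the other lists. Genes named beyond it were chosen after their values were seen: Hist1h3i, Hist1h3f, Hist1h3g, Hist1h4f, Hist1h2bk, Hist2h3c2, Hist2h4, Hist4h4, Hist1h1b, Hist1h1t, Hist1h2ba, Hist1h2aa, Hist2h2ac, Hist1h2ac, Cenpa, H1fx, Flt3, Zbtb46, Rn7sk and Trim17.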

Additional observations from a re-analysis of the deposited data

How the results depend on the processing

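With 1 library per medium no replicate could be left out. No paired analysis was possible because each medium has 1 library and the numbers in the column names differ. Scaling by total count, DESeq2 size factors or upper quartile changed neither the direction of a class or cluster sum nor a count of members past 2-fold, and the list of processing genes had 1 higher gene in place of 2 under total count. With no minimum beyond 1 count, 32 members lay past 2-fold on the lower side and 9 on the higher, and the stem-loop end median was -3.09. With a prior count of 5, 2 members were higher, and the medians were -1.24 over the measured members, -2.32 for stem-loop ends and -0.70 for extended genes. The median of the measured members was -1.40 with those at least 50% unique and, in an alternative added after the data were seen, -1.88 without those that overlap another gene. Leaving out the member with the most counts turned the direction of the H1 ratio (0.617) and the Hist2 ratio (0.75). It moved the ratios of methionine-free over complete medium to 0.125 for H2A, 0.372 for H2B, 0.132 for H3 and 10.1 for Hist3. By form, also added after the data were seen, it moved them to 0.205 for stem-loop ends and 0.895 for extended genes, and a limit of 50 bases gave 0.0937 and 0.519. With members at least 50% unique, the H2A ratio was 0.775. A minimum mean of 100 counts left no member. Over all alternatives, 100 of these sums, medians and counts stayed close to the reported value, 19 moved and 2 turned, and the causes were not tested. The ratios of named genes were put through the scalings alone, and 45 of 45 stayed. They had to stay, since the scaling factors lay between 0.993 and 1.007, so this tally cannot be set against that of the sums. A gene with 0 counts is limited only to under 0.188 CPM without methionine and 0.251 CPM in complete medium.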
